A study of Homo sapiens with 6 samples.

Results

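Small nucleolar RNA host genes are transcribed like other genes but are valued mainly for what lies in their introns. Spliced-out introns release small nucleolar RNAs (snoRNAs), short RNAs that guide the ribose methylation (C/D box class) or pseudouridylation (H/ACA box class) of ribosomal RNA, or its cleavage. The spliced exons that remain encode no conserved protein, but they carry short open reading frames, reach ribosomes and are in many cases destroyed by nonsense-mediated decay (NMD), a pathway that acts only on RNA that is being translated. Several of these genes start with a terminal oligopyrimidine (TOP) tract, the start element that they share with ribosomal protein genes.

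The 10 genes described here are SNHG1, SNHG3, SNHG5, SNHG6, SNHG7, SNHG8, SNHG12, SNHG15, GAS5 and ZFAS1. They were taken by symbol from the 26228 rows of the deposited expression table, and all 10 were among the 11471 rows with enough signal for testing. The values were FPKM, fragment counts scaled by transcript length and by the mapped fragments of each library. RNA came from AsPC-1, an established human pancreatic cancer line, and the study asked which genes respond when glutamine metabolism is blocked. One group of 3 libraries came from cells given DON (6-diazo-5-oxo-L-norleucine), a glutamine analog that inactivates glutamine-using enzymes, and the other group of 3 came from cells given vehicle. Both groups spent 24 h in medium without serum. The dose of DON is not given in the sources used here, and only 1 cell line was profiled.

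Library sums of FPKM, over rows with a value in every library, were 524057 to 552105 in DON and 528169 to 540112 in vehicle, and 11266 to 11328 genes in DON and 11423 to 11457 in vehicle reached 1 FPKM. Read depth is unknown. Earlier results of these data had shown that DON 1 resembles vehicle 1 and vehicle 2 in part of its profile, while DON 2 and DON 3 resemble vehicle 3. The labels name no batch for this split, so the differences of the 10 genes are also given within each side of it, and calls that changed in a fit with a term for the split (the split term) are given beside the other genes. Of the 8 epithelial markers listed, KRT8 and KRT18 had failure marks in DON 2, DON 3 and vehicle 3 only, which form 1 side of the split. Over all rows, cells with a failure mark numbered 12, 10 and 9 in the DON libraries and 23, 11 and 7 in the vehicle libraries. The other 6 epithelial markers together held 2777 to 3609 FPKM in DON and 3353 to 3935 FPKM in vehicle. They ranged widely, from CEACAM5 at 6.08 to 7.52 FPKM in DON and 8.26 to 12.3 FPKM in vehicle to KRT19 at 1527 to 2202 FPKM in DON and 1750 to 2377 FPKM in vehicle. In the limma fit 2 of these 6 were called lower in DON and 0 higher, and MUC1 held 18.6 to 20.2 FPKM in DON and 33.2 to 56.8 FPKM in vehicle. The collagens COL1A1, COL1A2 and COL3A1, the pericyte receptor PDGFRB, the leukocyte antigen PTPRC and the T cell marker CD3E were at most 0.0766, 0.391, 0.0530, 0.0363, 0.258 and 0.01 FPKM in any library, where 0.01 is the lowest value of the table. CD68, a lysosomal protein abundant in macrophages, was the exception among the leukocyte markers, at 25.9, 32.2 and 40.2 FPKM in DON and 23.2, 16.6 and 28.0 FPKM in vehicle, with overlapping groups. The sum of all 6 fibroblast markers, 88.8 to 124 FPKM in DON and 141 to 172 FPKM in vehicle, came almost wholly from LUM, and the part of these levels in the results was not tested.

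The annotated starts of 8 of the genes are shown first, because a TOP start (a C followed by an unbroken run of pyrimidines) is the sequence feature by which the class is tied to ribosomal protein genes. The sequences are RefSeq's on GRCh38.p14, each with 20 bases before the annotated start and 30 from it. Capitals mark the run of C and T that begins at the first transcribed base, and a window without capitals starts on a purine.
SNHG12, chr1:28581844-28581893, minus strand: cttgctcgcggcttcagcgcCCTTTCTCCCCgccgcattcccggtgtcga
SNHG5, chr6:85678704-85678753, minus strand: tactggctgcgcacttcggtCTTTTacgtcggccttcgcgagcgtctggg
ZFAS1, chr20:49278622-49278671, plus strand: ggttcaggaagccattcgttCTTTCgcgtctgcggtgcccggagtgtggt
SNHG7, chr9:136728155-136728204, minus strand: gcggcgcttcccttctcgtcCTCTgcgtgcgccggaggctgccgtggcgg
SNHG1, chr11:62855856-62855905, minus strand: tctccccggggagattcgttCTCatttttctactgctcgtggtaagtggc
SNHG8, chr4:118278742-118278791, plus strand: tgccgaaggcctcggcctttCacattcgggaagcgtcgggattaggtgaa
SNHG3, chr1:28505923-28505972, plus strand: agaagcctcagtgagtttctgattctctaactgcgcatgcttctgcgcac
GAS5, chr1:173869016-173869065, minus strand: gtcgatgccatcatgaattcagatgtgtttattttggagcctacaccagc

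Of these 8 annotated starts, 6 fell on a C, and in 3 (SNHG12, SNHG5 and ZFAS1) the C opened a run of at least 5 pyrimidines. The SNHG12 run was 11 bases long, while the runs of SNHG5 and ZFAS1 were 5 bases, that of SNHG7 4 bases and that of SNHG1 3 bases. Among all 35116 RefSeq promoter windows, 14.7% started on a C and 4.07% on a C with a run of at least 5. Among 63 ribosomal protein genes with a window, 43 (68.3%) had such a start. Other noncoding snoRNA hosts, described below, included SNHG4, SNHG18 and SNHG19 with such a start (runs of 13, 21 and 6 bases). The rest of those hosts with a window did not have it. In the limma fit SNHG19 was called lower in DON and SNHG4 was not called, while SNHG18 was not tested. Such a start was therefore not confined to the genes shown here. An annotated start may differ, by few or many bases, from the start used in these cells, which the data do not show. GENCODE 29 lists 29 transcripts of GAS5, 25 of SNHG1 and 3 of SNHG3, and only 1 window of each gene is shown. A window without such a run therefore does not show that the gene lacks a TOP start. The windows of 300 bases around the starts (250 before and 50 after) were also searched on both strands for 3 motifs. TGATGNAA, a form of the composite element bound by ATF4, was in 3.62% of all windows and in none of these 8. The window of SLC3A2, the gene beside SNHG1 that is described below, did hold a match (TTACATCA, read on the opposite strand). Its part in the level of either gene was not tested. The E-box CACGTG, bound by MYC, was in 7.26% of all windows and in that of SNHG7 alone among the 8, and CCGGAA, the core bound by ETS factors, was in 17.2% of all windows and in that of SNHG8 alone. No window of the 8 held more than 1 of these motifs.

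Because the 10 genes were proposed with their DON and vehicle values in view, their differences are a description and carry no test. DON libraries held more of this RNA: the 10 genes together came to 6365, 4935 and 4196 FPKM in the DON libraries, against 2580, 2813 and 2166 FPKM in the vehicle libraries. That is 1.15%, 0.904% and 0.801% of the library sum in DON and 0.479%, 0.521% and 0.410% in vehicle, so the lowest DON library lay above the highest vehicle library. Of the genes taken singly, 8 had a higher mean in DON and 2, SNHG15 and SNHG3, a lower mean. In the limma fit over all tested genes, 6 of the 10 passed an adjusted p of 0.05 in the upward direction, as did 18.3% of all tested genes, and 1 passed downward, as did 20.6% of all tested genes (7 of the 10 in either direction, against 38.9%). No vehicle library reached the lowest DON library for 7 of the 10, against 24.9% of tested genes, and every DON library lay below vehicle for 1, against 26.5% (8 in either direction, against 51.5%). Nothing is read from these shares, since the values helped to choose the genes. The median log2 difference (DON minus vehicle, on log2(FPKM + 1)) was 1.09 over the 10 and -0.01 over all tested genes. In bulk RNA, a change in the number of cells of a kind and a change of RNA per cell cannot be told apart.

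**Figure D1:**
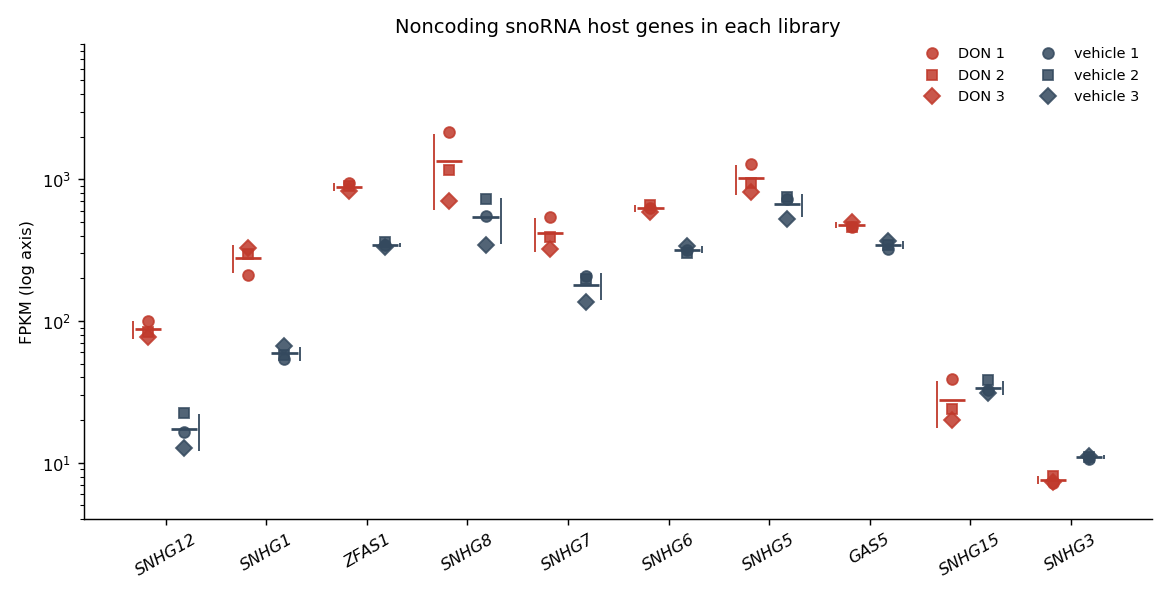
FPKM of each of the 10 host genes in every library on a logarithmic axis, DON libraries left of vehicle libraries, with a horizontal bar at the group mean and a vertical bar of 1 SD to either side. The groups are apart for 8 genes and overlap for SNHG8 and SNHG15, and SNHG3 lies at 7.21 to 8.11 FPKM in DON and 10.7 to 11.2 FPKM in vehicle.

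The C/D box hosts are taken first. SNHG1, the host of SNORD22 and SNORD25 to SNORD31, held 211, 299 and 330 FPKM in the DON libraries, against 53.7, 57.2 and 66.8 FPKM in the vehicle libraries. The lowest DON library was far above the highest vehicle library. The means were 280 ± 61.8 FPKM in DON and 59.2 ± 6.81 FPKM in vehicle (SD, n = 3 each), a 4.73-fold ratio. On the log2 scale the difference was 2.20 ± 0.18 (SE), with a 95% interval of 1.78 to 2.62. Ranked by mean FPKM among all genes, SNHG1 stood at place 261 in DON and 1542 in vehicle.

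ZFAS1, named for its position antisense to the start of the zinc finger gene ZNFX1, is the host of SNORD12, SNORD12B and SNORD12C. It held 942, 895 and 828 FPKM in the DON libraries and 345, 358 and 334 FPKM in the vehicle libraries. Both groups were tight, with coefficients of variation of 6.44% in DON and 3.51% in vehicle. The ratio of means, 888 ± 57.2 FPKM in DON over 346 ± 12.1 FPKM in vehicle, was 2.57. The log2 difference of 1.36 ± 0.09 (SE) had a 95% interval of 1.15 to 1.56.

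SNHG6, the host of SNORD87, held 626, 656 and 586 FPKM in the DON libraries, against 315, 303 and 337 FPKM in the vehicle libraries. The groups were far apart and the coefficients of variation were 5.65% in DON and 5.42% in vehicle, and the ratio of means was 1.96. Its log2 difference was 0.97 ± 0.09 (SE), with a 95% interval of 0.76 to 1.17.

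GAS5 takes its name from growth arrest, in which its spliced RNA was first seen to accumulate, and it carries the largest set of snoRNAs among the 10. It held 463, 462 and 503 FPKM in the DON libraries and 323, 342 and 369 FPKM in the vehicle libraries. The groups did not overlap, but the ratio of means was only 1.38, with 476 ± 23.7 FPKM in DON and 345 ± 23.4 FPKM in vehicle. The log2 difference was 0.47 ± 0.09 (SE), with a 95% interval of 0.25 to 0.68.

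SNHG5, the host of SNORD50A and SNORD50B, was the most abundant of the 10 in vehicle. The DON libraries held 1286, 947 and 814 FPKM and the vehicle libraries 726, 750 and 524 FPKM. The lowest DON library exceeded the highest vehicle library by a narrow margin beside the spread within either group. Its ratio of means was 1.52 and its log2 difference 0.60 ± 0.21 (SE), with a 95% interval of 0.11 to 1.09, and it did not pass the threshold of the fit.

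SNHG12 carries both classes, the C/D box snoRNA SNORD99 and the H/ACA box snoRNAs SNORA16A, SNORA44 and SNORA61. It held 101, 83.7 and 77.3 FPKM in the DON libraries, against 16.4, 22.5 and 12.6 FPKM in the vehicle libraries. This was the widest separation by ratio among the 10 genes, with means of 87.2 ± 12.04 FPKM in DON and 17.2 ± 5.0 FPKM in vehicle and a ratio of 5.07. The log2 difference was 2.31 ± 0.20 (SE), with a 95% interval of 1.82 to 2.79. By size of positive difference SNHG12 and SNHG1 stood at places 25 and 29 of the 11471 tested genes, and SNHG12 moved in rank by mean FPKM to 1004 in DON, against 4774 in vehicle.

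Among the pure H/ACA box hosts, SNHG7, the host of SNORA17 and SNORA43, held 544, 394 and 324 FPKM in the DON libraries, against 206, 199 and 135 FPKM in the vehicle libraries. All DON libraries were higher, although DON 1 and DON 3 differed from each other by a wide margin. The ratio of means was 2.33 and the log2 difference 1.21 ± 0.23 (SE), with a 95% interval of 0.66 to 1.76.

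SNHG8, the host of SNORA24, had the widest spread of the 10. It held 2147, 1165 and 706 FPKM in the DON libraries and 553, 731 and 344 FPKM in the vehicle libraries. DON 3 lay below vehicle 2, so the groups overlapped. The coefficient of variation was 55.0% in DON and 35.7% in vehicle. The ratio of means was 2.47, and the log2 difference of 1.22 ± 0.43 (SE) had a 95% interval of 0.20 to 2.24 and did not pass the threshold.

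SNHG15, the host of SNORA9, is known as a rapidly decaying RNA. The DON libraries held 39.0, 23.9 and 20.0 FPKM and the vehicle libraries 32.6, 38.1 and 31.2 FPKM. DON 1 was the highest of the 6 while DON 2 and DON 3 were the lowest, so no direction could be given. The log2 difference was -0.34 ± 0.23 (SE), with a 95% interval of -0.88 to 0.21.

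SNHG3, the host of SNORA73A and SNORA73B, which act in the cleavage of the ribosomal RNA precursor, ran against most of the others. It held 7.21, 8.11 and 7.33 FPKM in the DON libraries, against 10.7, 11.1 and 11.2 FPKM in the vehicle libraries. Every DON library was below every vehicle library. The means were 7.55 ± 0.489 FPKM in DON and 10.98 ± 0.296 FPKM in vehicle, and the log2 difference was -0.49 ± 0.09 (SE), with a 95% interval of -0.69 to -0.28. SNHG3 lies on the same strand as RCC1 and overlaps it in GENCODE 29, so the table's split of reads between the pair is uncertain.

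By level, in FPKM and thus per length, SNHG3 was the lowest of the 10 in both groups and SNHG8 and SNHG5 the highest pair. In DON the order was SNHG8, SNHG5, ZFAS1, SNHG6, GAS5, SNHG7, SNHG1, SNHG12, SNHG15 and SNHG3, and in vehicle it was SNHG5, SNHG8, ZFAS1, GAS5, SNHG6, SNHG7, SNHG1, SNHG15, SNHG12 and SNHG3. In DON the library ranges of the neighbours SNHG8 and SNHG5, SNHG5 and ZFAS1, GAS5 and SNHG7, and SNHG7 and SNHG1 overlapped. In vehicle those of SNHG5 and SNHG8, SNHG8 and ZFAS1, ZFAS1 and GAS5, and GAS5 and SNHG6 overlapped. SNHG12 and SNHG15 changed places: SNHG12 was above SNHG15 in every DON library and below it in every vehicle library. The spliced transcripts are short, with median annotated lengths in GENCODE 29 from 470 bases for SNHG8 to 2201 bases for SNHG3. Levels of such short RNAs depend on how effective length was set, which is not given in the sources used here. Exons on the opposite strand overlap those of SNHG6 (MCMDC2), SNHG7 (FAM69B), SNHG12 (TRNAU1AP), GAS5 (GAS5-AS1) and ZFAS1 (ZNFX1). The library kit kept strand, but whether counting used it is not stated, so reads of these pairs cannot be told apart with certainty.

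The spread within groups followed a pattern that several genes shared. DON 1 was the highest DON library and vehicle 3 the lowest vehicle library for 6 of the 10 genes, namely SNHG5, SNHG7, SNHG8, SNHG12, SNHG15 and ZFAS1. SNHG1 and SNHG3 had the opposite pattern, with DON 1 lowest among DON and vehicle 3 highest among vehicle. The largest deviations from a group mean were those of SNHG8, at 0.83 in DON 1, -0.78 in DON 3 and -0.59 in vehicle 3 on the log2 scale. SNHG15 at 0.54 in DON 1 and SNHG8 at 0.50 in vehicle 2 came next. DON 1 and vehicle 3 stand on opposite sides of the split of the libraries described above. Within the side of DON 1 (DON 1 against vehicle 1 and 2) and within the other side (DON 2 and 3 against vehicle 3), the log2 difference of SNHG12 was 2.33 and 2.58, that of SNHG1 1.91 and 2.22, and that of SNHG8 1.75 and 1.40. SNHG7 differed by 1.42 and 1.39, ZFAS1 by 1.42 and 1.36, SNHG6 by 1.02 and 0.88, SNHG5 by 0.80 and 0.74, GAS5 by 0.48 and 0.38, and SNHG3 by -0.53 and -0.49. SNHG15 alone changed sign, at 0.14 and -0.49. The median over the 10 genes was 1.22 within the first side and 1.12 within the second.

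**Figure D2:**
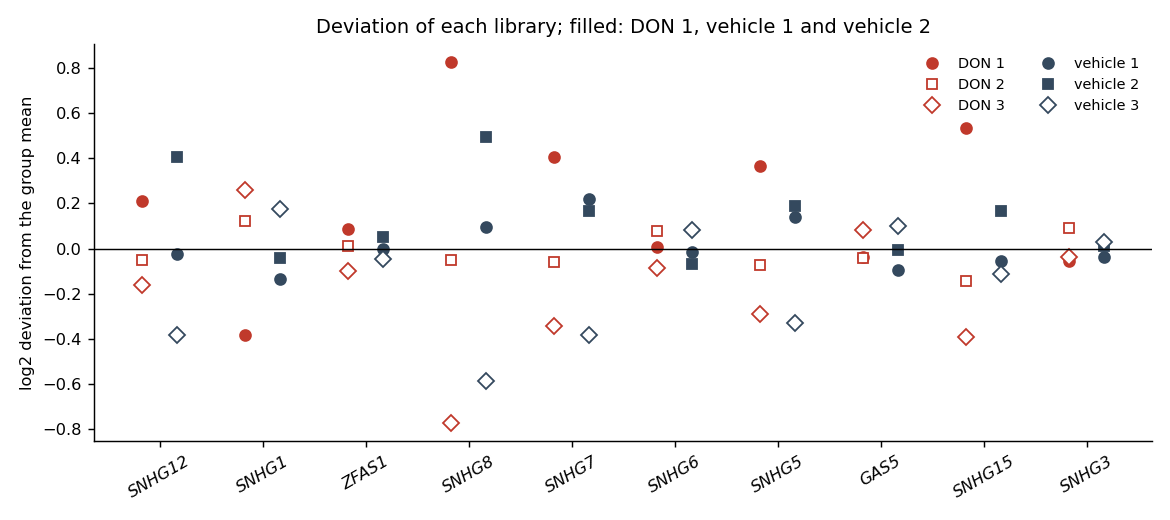
Deviation of each library from the mean of its own group for each of the 10 host genes, in log2(FPKM + 1), with DON (red) left of vehicle (dark blue) for each gene and filled symbols for DON 1, vehicle 1 and vehicle 2. SNHG8 spreads most, with DON 1 at 0.83 and DON 3 at -0.78.

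Ribosomal RNA guides are released from these introns, but poly(A) selection and short length keep most of them out of such libraries. Of 36 snoRNAs listed for the 10 hosts, 33 had a row in the table. For 22 of these the value was 0.01 FPKM in all 6 libraries, and 11 exceeded it in at least 1 library, 2 of them (SNORD22 and SNORA24) in all 6. The GAS5 introns contributed 10 rows, of which 2 exceeded 0.01 FPKM anywhere, and SNHG1 contributed 8, of which 1 did. Sequences of 4 guides are shown, from GENCODE 29 on GRCh38, to set the pair with a value in all 6 libraries beside 2 that lie in strongly differing hosts. In SNORD25 and SNORD12B capitals mark the C box and D box, in SNORD22 the D box, and in SNORA24 the ACA trinucleotide near the end.
SNORD22, in SNHG1, chr11:62852910-62853035, minus strand: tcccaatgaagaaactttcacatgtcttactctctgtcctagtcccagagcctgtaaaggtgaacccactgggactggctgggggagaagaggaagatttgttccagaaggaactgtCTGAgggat
SNORD25, in SNHG1, chr11:62855564-62855632, minus strand: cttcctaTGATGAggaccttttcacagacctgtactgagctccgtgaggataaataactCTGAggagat
SNORD12B, in ZFAS1, chr20:49280319-49280409, plus strand: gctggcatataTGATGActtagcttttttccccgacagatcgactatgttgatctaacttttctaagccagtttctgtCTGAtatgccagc
SNORA24, in SNHG8, chr4:118279190-118279320, plus strand: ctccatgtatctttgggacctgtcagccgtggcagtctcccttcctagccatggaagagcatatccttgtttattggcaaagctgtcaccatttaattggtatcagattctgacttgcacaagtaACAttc

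SNORD22 held 286, 80.8 and 28.9 FPKM in the DON libraries, against 109, 114 and 93.4 FPKM in the vehicle libraries. DON 1 was the highest and DON 3 the lowest of the 6, and no difference was called (log2 difference -0.25, limma adjusted p = 0.805). Without DON 3 the value was 0.53 and with the split term 0.21, both on the other side of 0. SNORA24 held 30.1, 23.3 and 8.34 FPKM in the DON libraries and 136, 61.7 and 40.4 FPKM in the vehicle libraries. Its groups did not overlap and it was called lower (log2 difference -1.89 ± 0.56 SE, limma adjusted p = 0.0344), while its host SNHG8 had the higher mean in DON. The SNORA24 call was lost at adjusted p = 0.069 without DON 2, 0.0748 without DON 3, 0.0934 without vehicle 1 and 0.0754 without vehicle 2. With all libraries, it was also lost in a limma fit without the filter on low genes (adjusted p = 0.0931). Within the sides of the split SNORD22 differed by 1.35 and -0.93. SNORD12B, in ZFAS1, stood at 55.4, 0.01 and 20.5 FPKM in DON and 0.01, 91.0 and 19.9 FPKM in vehicle, and SNORD25 at 0.01 FPKM in every library. With values that jump between the floor and far higher levels, a difference in most of these short RNAs was not detectable in these files.

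Other noncoding snoRNA hosts were compared in the same fit. The counts of this and the following lists stand beside 18.3% of all tested genes called higher and 20.6% called lower. Of 14 listed, 11 were tested, and SNHG14, SNHG18 and MEG8 were not. Of the 11, 1 was called higher in DON and 2 lower, and their median log2 difference was 0.17, against -0.01 over all tested genes. None of the 11 was called higher without DON 1, DON 2 or vehicle 2, and 2 were without DON 3, while 1 was called lower without DON 2, DON 3 or vehicle 2. The 10 genes were picked before this remainder was formed, so the contrast between them is not a test. EPB41L4A-AS1, the host of SNORA13, held 127, 89.6 and 71.4 FPKM in the DON libraries, against 60.7, 63.7 and 38.3 FPKM in the vehicle libraries, with no overlap. Its log2 difference was 0.81 ± 0.26 (SE, limma adjusted p = 0.0454), and the call was lost without DON 1 (adjusted p = 0.0902), DON 2 (0.105), vehicle 1 (0.0735), vehicle 2 (0.0595) or vehicle 3 (0.0914).

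SNHG19 was lower, with 69.1 ± 6.44 FPKM in DON and 99.1 ± 11.5 FPKM in vehicle (log2 difference -0.51 ± 0.12 SE, limma adjusted p = 0.0134). SNHG10, at 2.39 ± 0.215 FPKM in DON and 4.37 ± 1.21 FPKM in vehicle, was also called lower (-0.64 ± 0.17 SE, adjusted p = 0.0247). The SNHG10 call was lost without DON 1 (adjusted p = 0.0537), DON 2 (0.0608), DON 3 (0.0733) or vehicle 2 (0.0672). LRRC75A-AS1, the host of SNORD49A and its neighbours, was the most abundant of these, at 984 ± 57.9 FPKM in DON and 876 ± 14.9 FPKM in vehicle. Its difference of 0.17 was not called (adjusted p = 0.163). SNHG9 had a log2 difference of 1.01 (adjusted p = 0.117), which passed only without vehicle 1 (adjusted p = 0.0113). DANCR differed by 0.59 (adjusted p = 0.0955, and 0.00458 without vehicle 3), SNHG11 by 0.46 (0.114) and SNHG17 by 0.41 (0.113, and 0.0385 without DON 3). With the split term DANCR (0.39, adjusted p = 0.0272), SNHG11 (0.62, 0.00239) and SNHG17 (0.53, 0.00973) were called higher. SNHG4 differed by -0.27 (0.151, and 0.0428 without DON 1), and SNHG16 and SNHG20 each by 0.02 (0.914 and 0.927). SNHG20 differed by 0.27 and -0.19 within the sides of the split. The intervals for SNHG9 (-0.05 to 2.07) and DANCR (0.01 to 1.16) still allow differences as large as those of SNHG7 or SNHG6.

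**Figure D3:**
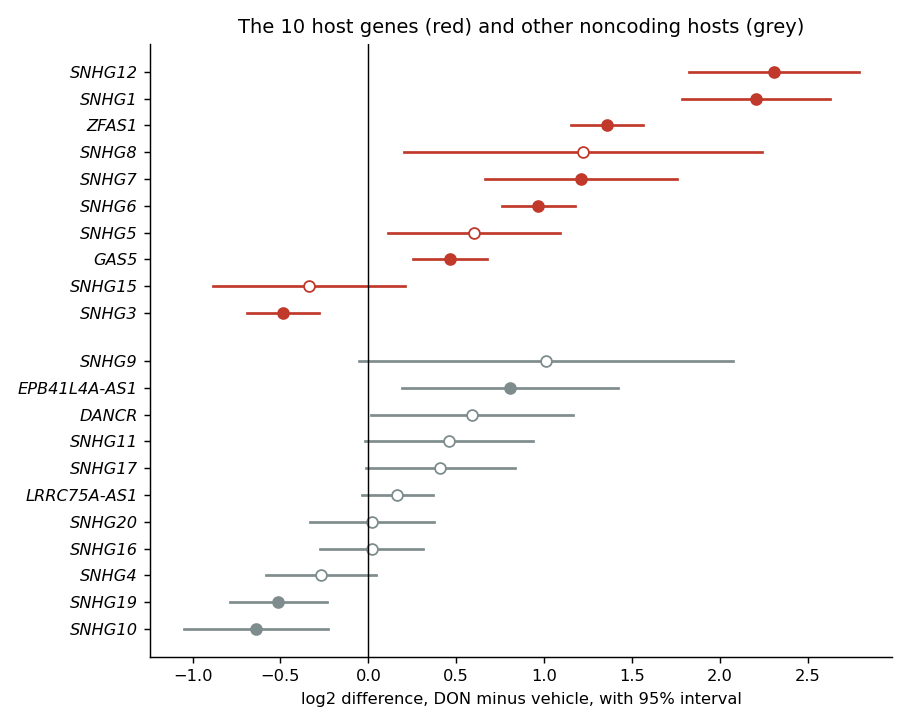
Log2 difference (DON minus vehicle, log2(FPKM + 1)) of the 10 host genes in red and the 11 other tested noncoding hosts in grey, with 95% intervals; filled points passed the adjusted p threshold of the fit and open points did not. SNHG12 at 2.31 and SNHG1 at 2.20 stand at the top, and SNHG10 at -0.64 at the bottom.

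Of 48 tested genes that encode proteins and host snoRNAs in their introns, 3 were called higher in DON and 8 lower, with a median log2 difference of 0.00. Without DON 2 these counts were 1 and 5, and 2 and 5 without vehicle 1 or vehicle 2, while with the split term they were 8 and 14. TAF1D, a subunit of the RNA polymerase I selectivity factor and host of several snoRNAs, was higher at 125 ± 5.36 FPKM in DON and 57.4 ± 2.34 FPKM in vehicle (log2 difference 1.11 ± 0.08 SE, limma adjusted p = 0.000135). HSPA8, the constitutive cytosolic chaperone, was lower at 503 ± 45.5 FPKM in DON and 852 ± 61.0 FPKM in vehicle (adjusted p = 0.00173). NOP56, a core protein of C/D box particles and itself a host, was lower at 40.8 ± 2.74 FPKM in DON and 66.7 ± 3.70 FPKM in vehicle (adjusted p = 0.00124).

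Ribosomal protein genes share the TOP start. Of 46 tested genes of the large subunit, 7 were called higher and 0 lower (median 0.12), and of 31 of the small subunit 2 were called higher and 2 lower (median 0.11). For the large subunit, limma gave 8 higher and 2 lower at an unadjusted p under 0.05, and 2 were called higher without DON 2, 3 without vehicle 1 and 4 without vehicle 2. In the small subunit 0 were called in either direction without DON 2, vehicle 1 or vehicle 2, and 1 in each without DON 3, while 3 were higher and 4 lower with all libraries at an unadjusted p under 0.05. With the split term 10 genes of the large subunit were called higher and 6 lower, and 9 of the small subunit higher and 7 lower. RPL41, whose reading frame is among the shortest known, was at 359 ± 102 FPKM in DON and 61.5 ± 28.2 FPKM in vehicle (log2 difference 2.60, limma adjusted p = 0.00256). RPL39, RPL35A and RPL26 were called higher by 0.68, 0.46 and 0.45, and RPS25 and RPS29 each by 0.42. RPS15 and RPS2 were called lower, with log2 differences of -0.51 and -0.32. Apart from RPL41 each of these calls was lost in at least 1 fit without a library, with adjusted p of 0.0523 for RPL39 without vehicle 1, and without DON 2 of 0.0961 for RPL35A, 0.0594 for RPL26, 0.135 for RPS25, 0.0696 for RPS29, 0.0799 for RPS15 and 0.129 for RPS2. Ribosomal protein genes have many processed copies in the genome, so the assignment of their reads is uncertain. Of 16 translation factors with a TOP start, 0 were called in either direction by limma (median 0.07), with 1 higher and 1 lower at an unadjusted p under 0.05. Without DON 1, 3 were called higher and 1 lower, and without vehicle 3, 2 were called higher. With the split term 6 were called higher and 2 lower. EEF1A1, the most abundant, had a log2 difference of -0.33 (adjusted p = 0.134, and 0.0406 without DON 1), or -0.21 with the split term (0.0248).

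Of 19 tested proteins that form or assemble snoRNA particles, 2 were called higher in DON and 7 lower, with a median of -0.15. Without DON 2 these counts were 0 and 3, without DON 3 or vehicle 1 they were 1 and 4, and without vehicle 2 they were 1 and 5, while with the split term they were 2 and 11. Beside NOP56, the H/ACA assembly factor NAF1 was at 7.29 ± 0.482 FPKM in DON and 12.0 ± 2.83 FPKM in vehicle (limma adjusted p = 0.019, and 0.0734 without DON 2). NHP2, an H/ACA core protein, was at 131 ± 25.8 FPKM in DON and 196 ± 33.6 FPKM in vehicle (adjusted p = 0.0383, and 0.122 without DON 2, 0.111 without DON 3, 0.117 without vehicle 1 and 0.119 without vehicle 2). ZNHIT3, an assembly factor of C/D box particles, was at 56.1 ± 1.01 FPKM in DON and 37.8 ± 6.84 FPKM in vehicle (adjusted p = 0.016, and 0.0624 without DON 2).

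The decay pathway itself was examined at the level of its factors and of coding RNAs known as its targets. Of 24 NMD factors tested, 6 were called higher and 2 lower, with a median of 0.17, beside 18.3% and 20.6% of all tested genes. The number higher was 3 without DON 2, 4 without DON 3 or vehicle 1 and 8 with the split term, with 2 lower in each. UPF3B, which links exon junctions to the decay machinery, was at 32.2 ± 4.67 FPKM in DON and 16.3 ± 2.39 FPKM in vehicle (limma adjusted p = 0.00265). UPF1, the central helicase, was at 11.8 ± 1.16 FPKM in DON and 18.6 ± 2.38 FPKM in vehicle (log2 difference -0.61, adjusted p = 0.00787). SMG9, a partner of the kinase that phosphorylates UPF1, was at 8.86 ± 1.10 FPKM in DON and 16.4 ± 2.71 FPKM in vehicle (adjusted p = 0.0052). MAGOH, a core protein of the exon junction complex, was higher by 0.67 (adjusted p = 0.0162, and 0.0615 without DON 2, 0.0573 without vehicle 1 and 0.0559 without vehicle 2).

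The 20 coding NMD targets split in both directions, with 6 called higher, 7 lower and a median of -0.04. Among them SRSF2 and SRSF7, splicing factors that limit their own RNA through poison exons, were lower: SRSF2 was at 60.2 ± 3.51 FPKM in DON and 180 ± 7.98 FPKM in vehicle (limma adjusted p = 5.2e-05), and SRSF7 at 29.2 ± 1.87 FPKM in DON and 79.1 ± 3.78 FPKM in vehicle. The stress factors ATF3 and ATF4 were higher, ATF3 at 6.38 ± 0.426 FPKM in DON and 1.92 ± 0.770 FPKM in vehicle (adjusted p = 0.00165). A gene-level FPKM does not part decayed from productive isoforms of these genes. Genes of the integrated stress response, which lowers translation initiation and raises ATF4 protein, were called higher for 9 of 10, with a median of 1.63. PPP1R15A, which reverses that block, was at 63.5 ± 16.1 FPKM in DON and 18.2 ± 4.03 FPKM in vehicle (log2 difference 1.74, adjusted p = 0.00123), and ASNS, DDIT3 and TRIB3 differed by 3.05, 2.58 and 2.19.

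Long noncoding RNAs that host no snoRNA gave 6 called higher and 2 lower of 19 tested, with a median of 0.17. Without DON 2 or DON 3 these counts were 3 and 1, and with the split term 8 and 4. MIR22HG, the host of a microRNA, was at 17.01 ± 0.787 FPKM in DON and 5.37 ± 0.598 FPKM in vehicle (limma adjusted p = 0.000117). LINC00152 was at 68.5 ± 9.65 FPKM in DON and 31.5 ± 4.92 FPKM in vehicle, and LINC00657 (NORAD, which binds Pumilio proteins) at 241 ± 20.1 FPKM in DON and 151 ± 17.1 FPKM in vehicle. MIR17HG, the host of the miR-17 cluster, was lower by limma (log2 difference -0.84, adjusted p = 0.0194), and the call was lost without DON 3 (0.065) or vehicle 1 (0.0589).

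**Figure D4:**
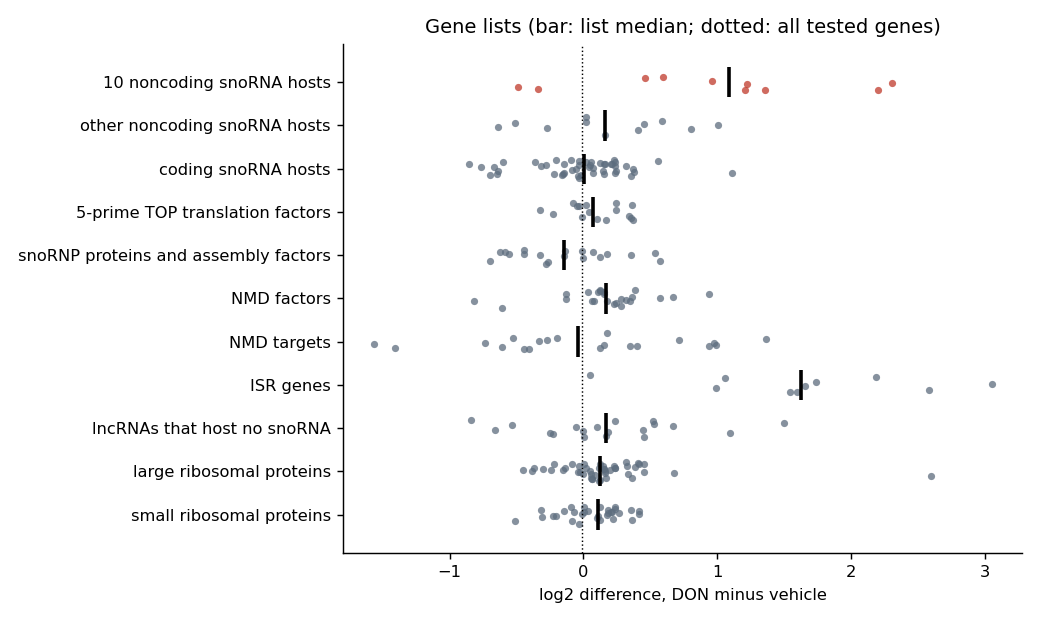
Log2 difference (DON minus vehicle, log2(FPKM + 1)) of every tested gene of each gene list, 1 point per gene, with a bar at the median of the list and a dotted line at the median of all tested genes. The medians are 1.09 for the 10 host genes, 0.17 for the other noncoding hosts and 0.00 for the coding hosts.

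The nearest tested genes on either side of each host, by RefSeq order, were set beside it. SNHG1 lies between WDR74, which did not pass at 47.8 ± 2.67 FPKM in DON and 47.0 ± 1.43 FPKM in vehicle (log2 difference 0.02, limma adjusted p = 0.848), and SLC3A2, the heavy chain of several amino acid transporters. SLC3A2 held 564, 431 and 407 FPKM in the DON libraries, against 123, 118 and 100.5 FPKM in the vehicle libraries, and its log2 difference of 2.02 ± 0.15 (SE, adjusted p = 0.000143) was close in size to the 2.20 of SNHG1. On either side of SNHG12, TRNAU1AP differed by 0.18 (adjusted p = 0.274) and TAF12, a subunit of TFIID, by 0.66 (adjusted p = 0.0257). The TAF12 call was lost without DON 2 (0.0844), DON 3 (0.0745) or vehicle 2 (0.0785).

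ZNFX1, which lies head to head with ZFAS1, went the other way, at 8.74 ± 0.390 FPKM in DON and 12.8 ± 0.442 FPKM in vehicle (log2 difference -0.50 ± 0.08 SE, limma adjusted p = 0.00373), and PTGIS on the far side differed by -0.18 (0.147, and 0.0485 without DON 1). PRSS12, next to SNHG8, was also lower, by limma at -0.40 (adjusted p = 0.0222), a call lost without DON 2 (0.0906), DON 3 (0.0541), vehicle 2 (0.0548) or vehicle 3 (0.0573). UGT8, with 40 untested genes between it and SNHG8, differed by -0.30 (adjusted p = 0.0996). SYNCRIP, an RNA-binding protein gene beside SNHG5, was lower at 35.1 ± 1.05 FPKM in DON and 45.4 ± 0.849 FPKM in vehicle (adjusted p = 0.00845). ZNF292 on its other side, past 20 untested genes, differed by 0.37 (adjusted p = 0.11, and 0.0429 without vehicle 3).

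SNHG6 and its neighbour SGK3, a kinase related to AKT, were higher by like amounts. SGK3 was at 18.6 ± 1.35 FPKM in DON and 8.63 ± 0.782 FPKM in vehicle (log2 difference 1.02 ± 0.10 SE, limma adjusted p = 0.000454), beside 0.97 for SNHG6, and COPS5 past 5 untested genes was higher by 0.61 (adjusted p = 0.0136, and 0.0543 without DON 2). RCC1, the nucleotide exchange factor of RAN that shares sequence with SNHG3, was lower at 12.9 ± 0.902 FPKM in DON and 24.2 ± 2.33 FPKM in vehicle (-0.85 ± 0.10 SE, adjusted p = 0.000985), and PHACTR4 before SNHG3 differed by -0.08 (0.486). The neighbours of SNHG7, GAS5 and SNHG15 did not pass with all libraries and no added term: AGPAT2 differed by 0.26 (0.222), TMEM141 by -0.10 (0.511), GAS5-AS1 by -0.01 (0.985), RC3H1 by -0.09 (0.499), PURB by 0.17 (0.343) and CCM2 by -0.54 (0.0533). CCM2 passed without DON 1 (0.0476) or vehicle 3 (0.011), with the split term (-0.41, 0.0177) and with quantile normalization (0.0404). AGPAT2 passed with the split term (0.39, adjusted p = 0.00116). No host was set against its neighbour by a test, since the hosts were chosen on the same contrast.

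**Figure D5:**
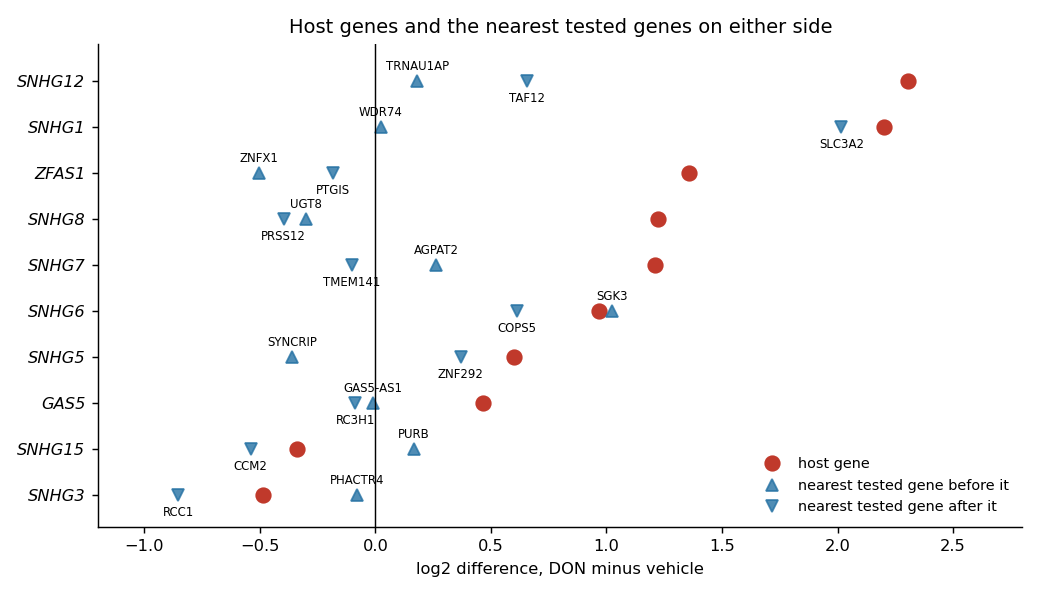
Log2 difference (DON minus vehicle, log2(FPKM + 1)) of each of the 10 host genes and of the nearest tested gene before and after it (upward and downward triangles), without error bars. SLC3A2 at 2.02 lies close to SNHG1 at 2.20 and SGK3 at 1.02 to SNHG6 at 0.97, while ZNFX1 at -0.50 lies opposite ZFAS1 at 1.36.

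Among 8591 other genes that averaged 5 FPKM or more, the profile over the 6 libraries most like the mean standardized profile of the 10 hosts was that of GLRX3, a glutaredoxin of iron-sulfur handling (Pearson r = 0.999). It was followed by GNL1 (0.998), C16orf72 (0.998), BBC3, which encodes the cell death protein PUMA (0.997), and DTX4 (0.997). These correlations rest on 6 libraries that fall into 2 groups, were picked as the highest of many, and are a description. GLRX3 was at 296 ± 49.4 FPKM in DON and 165 ± 17.1 FPKM in vehicle, and BBC3 at 9.99 ± 2.31 FPKM in DON and 4.87 ± 0.559 FPKM in vehicle, so both were higher in DON like most of the hosts.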

How the data were processed

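Poly(A) RNA of 6 AsPC-1 libraries (3 DON, 3 vehicle) was sequenced as single reads of 75 bases with a directional kit, per the labels' protocols, and, per the submitters' processing notes, STAR was used for alignment on the hg19 build. The authors deposited 1 table of FPKM values with a column per library. Not given in the sources used here are the quantification program, its annotation and its use of strand. The number of columns not used was 0. Read depth cannot be had from FPKM, so values carry no interval for counting error. Values of 41 rows with a failure mark (72 cells) were left out; KRT8 and KRT18 were among them. DON columns were set against the columns marked control, matched by number to the vehicle labels.

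Values were taken as log2(FPKM + 1), which understates the change of low genes. Genes that reached 1 FPKM in 3 or more libraries were fitted in limma 3.58.1 (R 4.3.3) with an intensity trend, two-sided, with Benjamini-Hochberg adjustment over all 11471 at 0.05. Folds are ratios of mean FPKM. The fit was tested on simulated data with independent noise, few changed genes and no split of the libraries. That test therefore does not cover data with many changed genes or a split like the one here. Nothing says that the replicates were separate cultures, so the spread behind each p-value is that between these libraries and may be technical. The 10 genes, the gene lists and the split of the libraries were chosen with earlier results of these data known. Genes named in the text are the 10 hosts, the other tested noncoding hosts, up to 4 called genes of each list by size of difference (where none was called, the most abundant), the nearest tested genes, the hosts' snoRNAs and the 5 genes with the most similar profile. Starts and neighbours came from RefSeq (GRCh38.p14), gene structures and snoRNA sequences from GENCODE 29 (GRCh38), and hg19 positions were not used. RefSeq windows were matched by symbol, with 8 shown. Tables and plots used Python 3.11.15, pandas 2.3.3, numpy 2.4.6, scipy 1.17.1 and matplotlib 3.10.9. Alternatives were leaving out each library, a replicate block, a term for the split, fits without the trend or without the filter, 5 FPKM in place of 1 as the filter, 0.1 in place of 1 as the pseudocount, and scaling by median of ratios or by quantiles.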

Additional observations from a re-analysis of the deposited data

How the results depend on the processing

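All 10 host genes kept the sign of their difference under the 14 alternatives, which reuse the same libraries. For SNHG15, whose sign changed between the sides of the split, this gives no direction. SNHG12 ranged from 2.11 to 2.51, SNHG1 from 2.06 to 2.39, ZFAS1 from 1.31 to 1.41, SNHG8 from 0.81 to 1.61, SNHG7 from 1.01 to 1.41, SNHG6 from 0.93 to 1.03, SNHG5 from 0.42 to 0.77, GAS5 from 0.42 to 0.52, SNHG15 from -0.61 to -0.14 and SNHG3 from -0.54 to -0.45 (log2). SNHG5 passed the threshold with median-of-ratios scaling, and SNHG5 and SNHG8 passed with the replicate block, with the split term and without DON 3. The number of hosts called lower ranged from 1 to 2 over the fits without a library, since SNHG15 passed only without DON 1. For the 10 genes, passing or missing the threshold is a description and not a test, since their values helped to choose them.

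Over all tested genes, limma called 4459, and 2697 to 4656 without a library, the lowest without DON 2. The number higher ranged from 1212 to 2133 and the number lower from 1485 to 2523 in these fits. Of the other noncoding hosts 1 was called higher in the main result, 0 with no filter, 4 with the split term and 0 to 2 without a library. The number called lower was 2, against 1 with no filter, 1 with a filter at 5 FPKM and 1 to 2 without a library. Their median of 0.17 was 0.43 with a filter at 5 FPKM, which removes 3 low genes (SNHG4, SNHG10 and SNHG20). Of 1057 comparisons of other named genes with an alternative, 963 kept their side of the threshold, 69 lost it and 25 gained it; the cause was not tested.

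Whether replicate numbers pair the libraries was not settled: same-numbered deviations correlated at 0.25, -0.18 and 0.50, and not every library correlated best with its own number. With the replicate block, 5414 genes were called, and 4 of the other noncoding hosts were called higher, with DANCR (adjusted p = 0.0317), SNHG11 (0.0067) and SNHG17 (0.0162) newly among them. CCM2 (0.00942), ZNF292 (0.0482) and the snoRNA SNORA43 (0.0389) also passed. So did 4 TOP translation factors upward and 2 large ribosomal proteins downward, against 0 and 0 without the block. Unknown depth limits what can be said of low values, and 3 libraries a group limit every interval.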
